A study of Mus musculus with 12 samples.

Results

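The genes described here encode the proteins that bring fatty acids into liver cells and carry them inside: the membrane receptor Cd36, 3 fatty acid transport proteins (Slc27a1, Slc27a2, Slc27a4), 4 intracellular fatty acid binding proteins (Fabp1, Fabp2, Fabp4, Fabp5), the lipase Lpl and the lipoprotein receptor Vldlr. These 10 genes were taken by symbol from the 55487 genes of the deposited tables, and all 10 had enough counts to be tested. RNA was sequenced from livers of 12 male mice aged 16 to 18 months, all with floxed Foxo3 alleles and all on ad libitum diet. The 6 controls lacked Cre and the 6 hepatocyte-specific Foxo3 knockouts (flox/flox) carried Alb-cre, a Cre recombinase under the albumin promoter that is active in hepatocytes, so other liver cells keep the gene. In each genotype 3 mice were sampled fed and 3 after overnight fasting. Foxo3 is a forkhead transcription factor that acts when insulin is low, and the series asks what it does in ageing liver under both feeding states.

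Long-chain fatty acids reach the liver free on albumin, released by fasting adipose tissue, or esterified in lipoprotein particles. Lipoprotein lipase, the product of Lpl, cleaves triglyceride in particles at the vessel wall, the VLDL receptor binds such particles, and Cd36 and the Slc27 proteins promote uptake, the latter by joining fatty acids to coenzyme A. FABPs keep the water-insoluble chains in solution in the cytosol. Fabp1 is the liver form, Fabp2 the intestinal form also made by mouse liver, Fabp4 the form of adipocytes and macrophages, and Fabp5 the epidermal form. Several of these genes are textbook targets of PPAR alpha, a nuclear receptor that fatty acids activate and that binds DNA at direct repeats spaced by 1 base (DR1).

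The stretches before the start sites of 4 genes are shown because these genes had the smallest unadjusted p-values of the 10 for a fasting response that differed between genotypes, and the stretch of Slc27a1 because that gene rose on fasting. The sequences are RefSeq promoter entries of build GRCm38.p6, the assembly of mm10, read on the strand of the gene. They cover 250 bases before the listed start, or 198 for Fabp1, where an annotated exon begins earlier. Capitals mark matches to the DR1 letters AGGTCANAGGTCA with at most 2 mismatches on either strand.
Cd36, chr5:17835897-17836146, minus strand: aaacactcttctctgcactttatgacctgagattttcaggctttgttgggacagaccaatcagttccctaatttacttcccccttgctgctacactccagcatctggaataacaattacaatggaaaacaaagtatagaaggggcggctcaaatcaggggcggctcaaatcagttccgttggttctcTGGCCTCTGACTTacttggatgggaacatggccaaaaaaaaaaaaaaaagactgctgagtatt
Fabp1, chr6:71199629-71199826, plus strand: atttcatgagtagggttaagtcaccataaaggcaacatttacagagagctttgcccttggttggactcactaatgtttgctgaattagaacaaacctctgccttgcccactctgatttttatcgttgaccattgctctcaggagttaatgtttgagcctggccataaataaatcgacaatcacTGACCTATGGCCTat
Fabp2, chr3:122894822-122895071, plus strand: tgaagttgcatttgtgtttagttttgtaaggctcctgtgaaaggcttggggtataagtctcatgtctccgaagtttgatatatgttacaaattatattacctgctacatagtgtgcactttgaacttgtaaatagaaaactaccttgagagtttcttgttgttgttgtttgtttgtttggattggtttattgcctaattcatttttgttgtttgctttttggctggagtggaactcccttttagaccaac
Vldlr, chr19:27216234-27216483, plus strand: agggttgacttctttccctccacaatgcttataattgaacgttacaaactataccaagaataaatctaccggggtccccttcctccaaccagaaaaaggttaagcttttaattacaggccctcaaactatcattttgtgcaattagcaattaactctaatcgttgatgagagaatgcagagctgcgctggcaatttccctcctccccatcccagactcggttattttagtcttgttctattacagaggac
Slc27a1, chr8:71568621-71568870, plus strand: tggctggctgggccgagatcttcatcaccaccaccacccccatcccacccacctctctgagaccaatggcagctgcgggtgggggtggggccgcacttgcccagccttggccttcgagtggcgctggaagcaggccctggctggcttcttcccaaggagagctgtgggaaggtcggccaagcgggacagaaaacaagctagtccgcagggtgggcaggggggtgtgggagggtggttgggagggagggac

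Fabp1 held a match with 1 mismatch at positions -67 to -55 from its start, and Cd36 a match with 2 mismatches at -63 to -51, both on the opposite strand. The Cd36 window lay inside the annotated gene (chr5:17781690-17888801, minus strand), so its listed start is not the outermost one. A further Slc27a1 window, chr8:71570344-71570593, is not shown. Matches of this kind were present before 1063 of 32851 listed starts (3.24%). The windows of the other 5 genes with an entry, Fabp2, Slc27a1, Slc27a2, Slc27a4 and Vldlr, held none. The searched sequence of Slc27a2, which also rose on fasting, began inside an annotated exon of that gene and is not shown. The forkhead core TGTTTAC, searched on both strands, was before 1040 starts (3.17%) and in none of the windows of these 7 genes. These matches describe the letters of the windows and show no binding.

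Library totals were 17520058 to 22414976 counts, with 15862 genes tested. Foxo3 itself was higher in libraries labelled knockout (58.8 to 62.2 CPM fed and 46.5 to 53.5 fasted) than in controls (44.5 to 50.4 and 38.0 to 44.3). Which exons are floxed is not given in the sources used here. A count over the whole gene includes exons that Cre does not remove, so this level is no check of the genotype. Summed hepatocyte markers lay between 77050 and 122200 TPM, as for liver. Fed control replicate 3 stood apart. In TPM it had the highest level of 7 of 8 infiltrating macrophage markers and of all 7 endothelial markers. The same held for all 6 stellate cell and all 15 interferon response genes examined. Fed knockout replicate 1 had the highest TPM of 13 of 21 acute phase genes. Summed over these 21, fed knockouts had 50090, 29580 and 30970 TPM and fed controls 17220, 19160 and 19300 TPM. Every fed knockout was thus above every fed control. The fasted groups overlapped, at 16410 to 38510 TPM in knockouts and 17300 to 32800 TPM in controls. For Cd36, Fabp1, Fabp2, Fabp4, Lpl and Vldlr, some values without fed control replicate 3 or fed knockout replicate 1 are given beside the main ones. No label names a batch, and the labels do not say whether mice were littermates, so such differences cannot be told apart from the groups.

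The 10 genes spanned more than 3 orders of magnitude in TPM, a unit scaled for gene length that allows genes to be compared. Fabp1 (ENSMUSG00000054422, chromosome 6, 71199827 to 71205023 in mm10) averaged 9873 TPM over the 12 livers, with a range from 6605 to 13420. Slc27a2 (ENSMUSG00000027359, chromosome 2, 126552407 to 126588243), a very long-chain acyl-CoA synthetase and transport protein, averaged 946 TPM. Fabp2 (ENSMUSG00000023057, chromosome 3, 122895072 to 122899506) averaged 227 TPM and Cd36 (ENSMUSG00000002944, chromosome 5, 17781690 to 17888801) 124 TPM, and their ranges overlapped (94.5 to 332 and 54.3 to 247 TPM). Slc27a4 (chromosome 2, 29802634 to 29817522) averaged 24.1 TPM. The remaining means were 13.9 TPM for Fabp5 (chromosome 3, 10012548 to 10016607), 7.04 for Slc27a1 (chromosome 8, 71568882 to 71587302), 6.97 for Lpl (chromosome 8, 68880491 to 68907448), 3.22 for Fabp4 (chromosome 3, 10204088 to 10208576) and 1.8 for Vldlr (chromosome 19, 27216484 to 27254231). The order among these last 5 is within their spread over livers.

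Fabp1 and Slc27a2 held most of the signal of the FABP and Slc27 genes among the 10. Fabp1 made up 96.2 to 98.1% of the summed TPM of the 4 FABP genes in each liver, and Fabp2 1.4 to 3.73%. Slc27a2 made up 96 to 97.4% of the 3 Slc27 genes. Of their relatives outside the 10, Slc27a5, a bile acid and fatty acid CoA ligase of hepatocytes, was at 741 to 1008 TPM, within the range of Slc27a2 (608 to 1338 TPM), while Fabp7, the brain form, was at 2.86 to 12.3 TPM. Fabp3, the heart form, did not exceed 0.796 TPM. The most variable of the 10 was Fabp5, 48.7-fold higher in its highest than in its lowest liver, against 1.78-fold for Slc27a4. Depth limits the scarce genes: Fabp5 had 23 counts in fasted control replicate 2 (95% Poisson interval 14.6 to 34.5) and Vldlr 46 in fed knockout replicate 1 (33.7 to 61.4), intervals that cover counting error only, while every Fabp1 value rested on at least 29679 counts. The antisense gene 4933405D12Rik spans Fabp2 but had at most 5 counts, and the processed pseudogene Fabp5l2 had 0 counts in every library. How reads with more than 1 matching place were counted is not given in the sources used here, so the Fabp5 counts are less certain than the others.

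**Figure D1:**
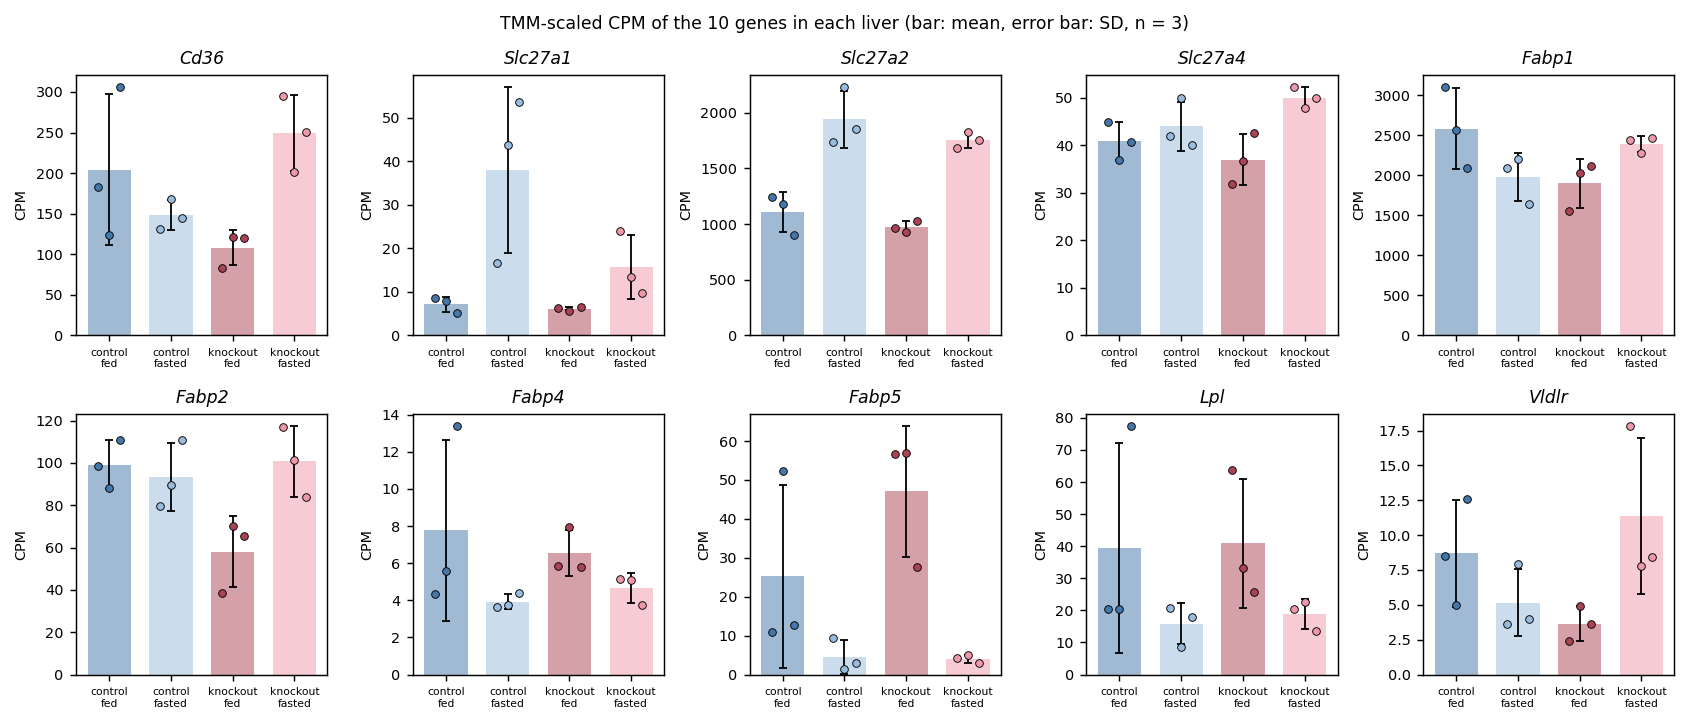
TMM-scaled CPM (vertical axes, linear from 0, a separate range in each panel) of the 10 genes in the 4 groups: points are single livers, bars the mean and error bars the SD of 3 livers. Fasted livers of both genotypes lie above fed ones for Slc27a1 and Slc27a2 and below them for Fabp5, and fed control replicate 3 is the highest point for Cd36, Fabp4 and Lpl.

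Fasting changed 3 of the 10 genes when averaged over genotypes: Slc27a2 and Slc27a1 rose and Fabp5 fell, against 9.07% of all tested genes called by edgeR (4.55% higher and 4.52% lower). Values below are in TMM-scaled CPM, counts per 1000000 adjusted for library composition, in replicate order. Differences are log2 fold changes, each followed by its standard error (SE). In control livers 2 of 10 rose and 0 fell, with 4.14% of all genes called (2.05% higher and 2.09% lower), and before adjustment 4 of the 10 had p under 0.05, beside 19.4% of all genes. In knockout livers 1 of 10 rose and 0 fell, with 2.48% called (1.36% higher and 1.12% lower), and before adjustment 7 of the 10 had p under 0.05, beside 14.6%. With DESeq2 the calls were 3 of 10 in controls, beside 7.86% of all genes with an adjusted p, and 7 of 10 in knockouts, beside 5.07%. The median log2 difference of the 10 was -0.43 in controls and 0.62 in knockouts, beside 0.00 and -0.01 over all tested genes. In bulk liver, fewer cells of a type and less RNA per cell cannot be told apart.

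Fed controls had 1240, 1176 and 901 CPM of Slc27a2, and fasted controls 1738, 2233 and 1854. In knockouts it was at 968, 925 and 1029 CPM fed and 1680, 1824 and 1757 fasted. Fed and fasted livers did not overlap in either genotype, and the log2 change was 0.81 in controls (SE 0.15, adjusted p = 0.011) and 0.85 in knockouts (SE 0.15, adjusted p = 0.013), with 0.83 averaged (SE 0.11, adjusted p = 0.00053). The difference between these responses was 0.04 with a 95% interval of -0.42 to 0.49. Averaged over genotypes and in controls the rise was past the threshold with any 1 library left out (in controls with adjusted p up to 0.04995). The knockout call ended without fed knockout replicate 1 (adjusted p = 0.065) or 2 (0.057), and the control call when only the 6 control libraries were fitted (0.077).

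Slc27a1 encodes the transport protein best known from muscle and fat. Fed controls had 8.45, 7.8 and 5.21 CPM of it, and fasted controls 16.6, 43.7 and 53.5, with replicate 1 well below the others. Knockouts had 6.27, 5.67 and 6.45 CPM fed and 24.0, 13.3 and 9.67 fasted. Every fasted liver was above every fed liver of its genotype. The log2 change was 2.41 in controls (SE 0.44, adjusted p = 0.017), 1.36 in knockouts (SE 0.45, adjusted p = 0.18, DESeq2 0.013) and 1.88 averaged (SE 0.31, adjusted p = 0.0051). The control call was lost without fed control replicate 2 (0.061) or 3 (0.069) or fasted control replicate 2 (0.056) or 3 (0.055), and when only control libraries were fitted (0.068). The averaged call held without any 1 library. In fasted livers knockouts had less Slc27a1 on average (-1.27, SE 0.42, adjusted p = 0.52), with knockout replicate 1 above control replicate 1.

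Slc27a4 encodes an acyl-CoA synthetase of broad expression. It was at 44.9, 36.9 and 40.8 CPM in fed and 42.0, 49.9 and 40.0 in fasted controls. In knockouts it was at 31.8, 36.6 and 42.5 CPM fed and 52.2, 47.7 and 50.0 fasted. The groups overlapped in controls (0.10, SE 0.12, adjusted p = 0.69) and not in knockouts (0.44, SE 0.12, adjusted p = 0.086, DESeq2 0.039). The averaged difference passed the threshold of edgeR only when fed knockout replicate 3 was left out (0.33, adjusted p = 0.036).

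Cd36, the scavenger receptor and fatty acid translocase, had fasting differences of opposite sign in the 2 genotypes. The test of the difference between them had adjusted p = 0.52 by edgeR and 0.013 by DESeq2. Fed controls had 182, 124 and 306 CPM and fasted controls 132, 168 and 145. Fed knockouts had 82.7, 121 and 120 CPM and fasted knockouts 295, 201 and 250. Fed and fasted livers overlapped in controls and were fully apart in knockouts. The log2 difference on fasting was -0.47 in controls (SE 0.28, adjusted p = 0.41) and 1.21 in knockouts (SE 0.29, adjusted p = 0.054), so neither passed by edgeR. DESeq2 called the knockout difference (adjusted p = 0.00051), and edgeR did so without fed control replicate 3 (0.00619) or 2 (0.017), which enter through the shared estimate of spread. The edgeR fit of only the knockout libraries also called it (0.014). Without fed knockout replicate 1 it was 1.05 (adjusted p = 0.21). The control difference was -0.05 without fed control replicate 3, and the average over genotypes then went from 0.37 (adjusted p = 0.29) to 0.58 (0.027).

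Fabp2 showed a like order of group means. It was at 98.7, 88.0 and 111 CPM in fed and 79.6, 89.7 and 111 in fasted controls, which overlapped (-0.09, SE 0.21, adjusted p = 0.86). Fed knockouts, at 38.7, 70.1 and 65.5 CPM, lay below all other 9 livers, and fasted knockouts were at 117, 102 and 83.7. The fasting difference in knockouts was 0.80 (SE 0.21, adjusted p = 0.074, DESeq2 0.007), with a range from 0.57 to 0.95 over all alternatives. Of 6 enterocyte markers, Lgals4 was at 6.06 to 49.1 TPM and rose on fasting in controls (1.98, adjusted p = 0.000176) and knockouts (1.41, 0.00255), and its part in the Fabp2 values was not tested. The other 5 were at no more than 0.357 TPM, with Cdx1 and Cdx2 at 0 in every library. Fabp1 was at 3103, 2559 and 2085 CPM in fed and 2087, 2202 and 1638 in fasted controls, and at 1550, 2030 and 2114 in fed and 2441, 2274 and 2463 in fasted knockouts. Its fasting difference was -0.39 in controls (SE 0.18, adjusted p = 0.27) and 0.33 in knockouts (SE 0.18, adjusted p = 0.44), so neither passed the threshold. Without fed knockout replicate 1 the latter was 0.21, and without fed control replicate 1 the former was -0.23.

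Fabp5 fell on fasting when averaged over genotypes. It was at 10.9, 52.4 and 12.6 CPM in fed and 9.43, 1.3 and 2.91 in fasted controls. Knockouts had 56.6, 56.9 and 27.7 CPM fed and 4.24, 4.94 and 2.99 fasted. Every fed liver was above every fasted liver of its genotype, by a narrow margin in controls. The log2 change was -2.99 averaged (SE 0.57, adjusted p = 0.013), and with 1 library left out its adjusted p stayed at or below 0.0404. It was -2.47 in controls (SE 0.8, adjusted p = 0.13), with -1.36 when fed control replicate 2, the high fed control, was left out (0.32), and -3.52 in knockouts (SE 0.82, adjusted p = 0.066). DESeq2 called both (0.028 and 0.00055), and edgeR called the knockout difference without fed control replicate 2 (0.027) or fasted control replicate 1 (0.049).

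Fabp4 was scarce, at 4.37, 5.56 and 13.4 CPM in fed and 3.66, 3.73 and 4.38 in fasted controls, and 5.85, 7.98 and 5.81 in fed and 5.13, 5.12 and 3.74 in fasted knockouts. The high value was that of fed control replicate 3. The fasting difference was -0.98 in controls (SE 0.35, adjusted p = 0.14) and -0.34 without that library (0.49). In knockouts it was -0.48 (SE 0.35, adjusted p = 0.58). Averaged, it was -0.73 (adjusted p = 0.086), -0.41 without fed control replicate 3 (0.12) and -0.88 without fed control replicate 1, which edgeR called (0.025). DESeq2 called the averaged difference with all libraries. Of 5 adipocyte markers, Adipoq, Retn and Plin1 did not exceed 0.369, 0.575 and 0.0231 TPM and Lep was at 0 in every library. The other, the adipsin gene Cfd, was at 1.52 to 63.2 TPM. It fell on fasting averaged over genotypes (-2.22, adjusted p = 0.038), with -2.88 in controls (0.086) and -1.56 in knockouts (0.41), and its part in the Fabp4 values was not tested.

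Lpl, which adult hepatocytes make at low levels, was at 20.5, 20.5 and 77.4 CPM in fed and 20.9, 8.59 and 17.8 in fasted controls. Knockouts had 63.8, 33.1 and 25.8 CPM fed and 20.5, 22.6 and 13.5 fasted. The groups overlapped in controls, where the difference was -1.32 (SE 0.6, adjusted p = 0.27) and -0.37 without fed control replicate 3 (0.75). In knockouts, where all fed livers were higher, it was -1.11 (SE 0.6, adjusted p = 0.45), and -0.64 without fed knockout replicate 1 (0.79). Averaged over genotypes it was -1.22 (SE 0.43, adjusted p = 0.12, DESeq2 0.042), and -0.74 without fed control replicate 3. Vldlr was at 8.5, 4.95 and 12.6 CPM in fed and 3.61, 7.92 and 3.96 in fasted controls, and at 2.4, 4.89 and 3.66 in fed and 17.8, 7.81 and 8.46 in fasted knockouts. Its fasting difference was -0.76 in controls (SE 0.45, adjusted p = 0.39), -0.40 without fed control replicate 3 and -1.20 without fasted control replicate 2. It was 1.64 in knockouts (SE 0.46, adjusted p = 0.1, DESeq2 0.004). Without fasted knockout replicate 1, the highest liver, the knockout value was 1.16 (adjusted p = 0.28).

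**Figure D2:**
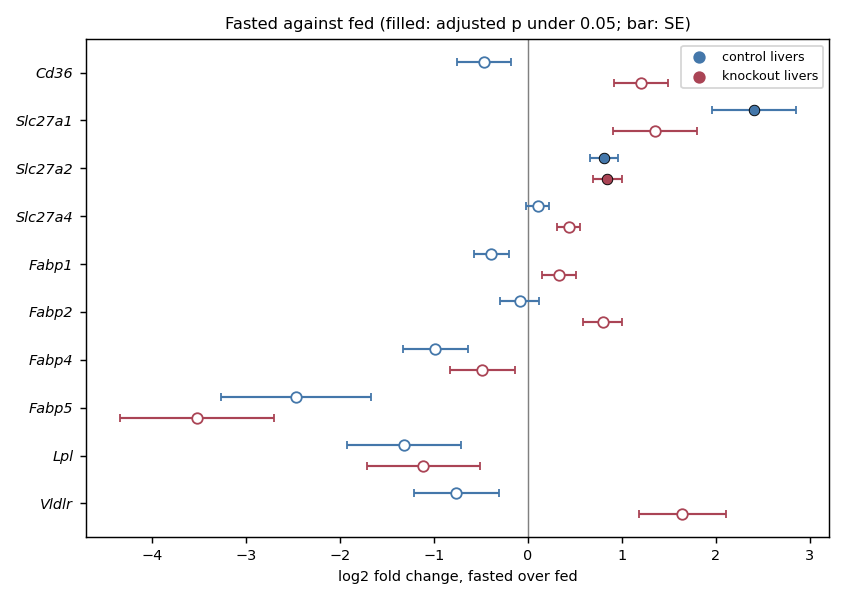
Log2 fold change of fasted over fed livers (horizontal axis) for each gene in control and knockout livers, with the SE as bars and filled points where the adjusted p was under 0.05. Slc27a1 and Slc27a2 in controls and Slc27a2 in knockouts are filled, and the points of Cd36, Fabp1, Fabp2 and Vldlr lie on opposite sides of 0 in the 2 genotypes.

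In knockout livers the 3 fed and the 3 fasted values did not overlap for any of the 10 genes, with 7 higher and 3 lower on fasting, although 1 passed the test. Over all tested genes 23.2% were apart in this way, 11.5% higher and 11.7% lower. In controls 3 of the 10 were apart (Slc27a1, Slc27a2 and Fabp5), beside 22.3% of all genes. The count for knockouts was 10 on each of 4 scales examined (TMM-scaled CPM, RLE-scaled CPM, CPM of library totals and TPM), and for controls it was 3 on the first and 4 on the other 3. A difference in such counts between genotypes is not a test of the responses. Fed knockout replicate 1 was the lowest of all 12 libraries for 5 of the genes (Cd36, Fabp1, Fabp2, Slc27a4, Vldlr), and the part of its high acute phase genes in this was not tested.

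Between genotypes edgeR called 0 of the 10 genes in fed livers, where 0% of all genes passed. Before adjustment 4 of the 10 had p under 0.05, beside 6.12% of all genes, and the DESeq2 count was 1 (0.997% of the 3311 genes to which it gave an adjusted p). In fasted livers edgeR also called 0 of the 10, beside 0.0315% of all genes, with 3 under 0.05 before adjustment (9.01% of all genes). There the DESeq2 count was 0, beside 0.299% of the 14047 genes to which it gave an adjusted p. Averaged over feeding states edgeR called 0, beside 0.0126% of all genes, with 2 under 0.05 before adjustment (7.91% of all genes). For this average the DESeq2 count was 0, beside 0.294% of the 15658 genes to which it gave an adjusted p. In fed livers knockout means were lower for 8 of the 10 genes, with a median log2 difference of -0.24, beside -0.01 over all tested genes. Of the 10, 3 were fully apart and lower (Cd36, Fabp2 and Vldlr), beside 6% of all genes apart and lower and 12.3% apart in either direction. The log2 difference between knockout and control was -0.92 for Cd36 (SE 0.29, adjusted p = 0.78), -0.77 for Fabp2 (SE 0.21, adjusted p = 0.68, DESeq2 0.04), -1.25 for Vldlr (SE 0.46, adjusted p = 0.81) and -0.44 for Fabp1 (SE 0.18, adjusted p = 0.81). On the TPM scale Cd36 and Vldlr overlapped between fed groups. Without fed control replicate 3 the Cd36 difference was -0.52, and without fed knockout replicate 1 that of Fabp2 was -0.55. That of Vldlr ranged from -1.53 to -0.73 over all alternatives. For Slc27a2 the fed difference was -0.18 with a 95% interval of -0.51 to 0.14, and for Lpl 0.05 with -1.27 to 1.38.

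In fasted livers knockout means were higher for 7 of the 10 genes, with a median log2 difference of 0.22, beside -0.01 over all tested genes. Cd36 and Fabp1 were above every control (0.75, SE 0.28, adjusted p = 0.53, and 0.28, SE 0.18, adjusted p = 0.67), beside 6.82% of all genes apart and higher and 14% apart in either direction. Vldlr was higher by 1.15 (SE 0.45, adjusted p = 0.53), with 1 of the 3 knockout livers just below the highest control. Without fasted knockout replicate 1 it was 0.66. The direct test of the difference between fasting responses called 0 of the 10 by edgeR, beside 0.0063% of all genes. DESeq2 called 2, beside 0.301% of the 19961 genes to which it gave an adjusted p. Before adjustment 4 had p under 0.05 by edgeR, beside 7.19% of all genes. Those 4 were Cd36 with 1.67 (SE 0.4, 95% interval 0.79 to 2.56, adjusted p = 0.52, DESeq2 0.013), Vldlr with 2.40 (SE 0.64, 0.98 to 3.83, adjusted p = 0.55, DESeq2 0.028), Fabp2 with 0.88 (SE 0.29, adjusted p = 0.61) and Fabp1 with 0.72 (SE 0.26, adjusted p = 0.62). Without fed control replicate 3 the Cd36 and Vldlr values were 1.27 (adjusted p = 0.43) and 2.05 (0.58). Over all alternatives those of Fabp2 and Fabp1 ranged from 0.66 to 1.04 and from 0.57 to 0.86. This test and the genotype and fasting comparisons share libraries, so their values are not independent of each other.

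**Figure D3:**
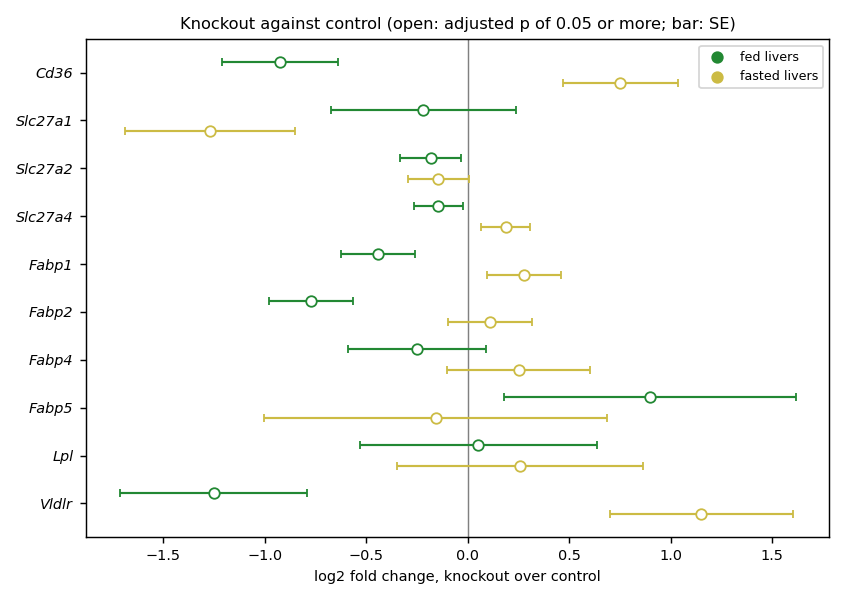
Log2 fold change of knockout over control livers (horizontal axis) for each gene in fed and in fasted livers, with the SE as bars. All points are open because none had an adjusted p under 0.05, and those of Cd36, Slc27a4, Fabp1, Fabp2, Fabp4 and Vldlr are negative in fed and positive in fasted livers.

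Among the other genes of the pathway, PPAR alpha targets were called most often on fasting. Of 29 tested PPAR alpha targets (none of them among the 10), 18 rose and 0 fell on fasting in controls (median 0.88), and 21 rose and 0 fell in knockouts (median 1.2). Cpt1a, the carnitine transferase that admits fatty acids to mitochondrial oxidation, rose by 0.90 (adjusted p = 0.002) and 1.06 (0.0014). Plin5, a lipid droplet coat protein, rose by 1.17 (0.0017) and 1.15 (0.0028). Of 18 tested genes of fatty acid activation and acyl-CoA binding, 0 rose and 4 fell in controls and 3 rose and 3 fell in knockouts. Acsl5 and Acsl4, long-chain acyl-CoA synthetases, changed by -0.97 (0.0016) and -0.78 (0.039) in controls, and Acss2, the cytosolic acetate-activating enzyme, by -1.76 (0.0031). Acsl1, the main hepatic long-chain synthetase, rose by 0.98 in knockouts (adjusted p = 0.038) and was higher by 0.80 in controls (0.067).

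Of 25 tested genes of the lipase system and lipoprotein receptors, 4 rose and 0 fell in controls and 2 rose and 1 fell in knockouts. Angptl4, the secreted inhibitor of lipoprotein lipase, rose by 1.65 in controls (adjusted p = 0.019), was 1.235 higher in knockouts (0.08) and rose by 1.44 averaged (0.0034). Angptl8, a lipase inhibitor of the fed state, changed by -1.66 averaged (0.011). Apoa5, an activator of the lipase, rose by 0.61 in knockouts (0.024). Of 16 nuclear receptors and coactivators, 2 rose in each genotype: Nr1i3, the constitutive androstane receptor, in both (1.29, adjusted p = 0.023, and 1.5, 0.017), Ahr in controls (0.78, 0.037) and Ppara in knockouts (0.56, 0.036). In these lists no gene was called between genotypes or for the interaction by edgeR.

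Cd36, Vldlr, Fabp1, Fabp2, Slc27a1, Slc27a2 and Slc27a4 had negative differences between fed knockouts and controls and positive ones on fasting in knockouts. Fabp4 had negative values in both comparisons, and Fabp5 and Lpl went the other way in both. Both comparisons use the fed knockout libraries, so their signs are not independent of each other. Several other lists were read in the same comparisons. Of the 29 tested PPAR alpha targets, 28 had negative differences between fed knockouts and fed controls and 1 a positive one (median -0.67, 0 called). On fasting in knockouts all 29 had positive differences (median 1.2), and in controls 25 did and 4 had negative ones. Their interaction values were positive for 24 and negative for 5 (median 0.37, 0 called). Of 14 tested female-biased liver genes, 12 had negative differences between fed knockouts and fed controls (median -1.72), with 0 called. On fasting in knockouts 13 had positive differences (median 2.07), and 3 rose. Of 15 male-biased genes, all had positive differences between fed knockouts and controls (median 0.62, 0 called), and on fasting in knockouts all had negative ones (median -1.41), and 4 fell. Of 6 stellate cell markers, all had negative differences between fed genotypes (median -0.67) and positive ones on fasting in knockouts (median 0.13), with 0 called in either. All 15 interferon response genes had negative differences between fed genotypes (median -0.73, 0 called) and positive interaction values (median 0.72, 0 called), and 5 of the 15 had positive differences on fasting in knockouts (median -0.07). Fed control replicate 3 had the highest level in TPM of all these stellate and interferon genes. Of 21 acute phase genes, 19 had positive differences between fed knockouts and fed controls and 2 negative ones (median 0.95, 0 called). On fasting in knockouts 5 had positive differences and 16 negative ones (median -0.26, 0 called). Their interaction values were positive for 2 and negative for 19 (median -0.69, 0 called). Cd36 is known to be higher in female than in male mouse liver. The part of these lists in the values above was not tested.

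Fed control replicate 3, in which Lpl was 3.78-fold, Fabp4 2.7-fold, Cd36 2-fold and Vldlr 1.88-fold the mean of the other 2 fed controls, also had the highest sum of infiltrating macrophage markers, 321 TPM against 49.3 to 95.6 TPM in the other 11 livers. Most of that sum was Spp1, at 233 TPM, and Cd68 was at 61.7 TPM. Summed markers of Kupffer cells, the resident macrophages of liver, were at 601 TPM in it and highest in fasted control replicate 1 (673 TPM). Fabp1, Slc27a2, Slc27a1 and Fabp5 were at 0.737, 0.746, 0.642 and 0.399 times the mean of the other 2. Whether macrophages account for these levels was not tested. Fed knockout replicate 1, with the highest Lpl of its group, was at 95.5 TPM for the same markers.

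**Figure D4:**
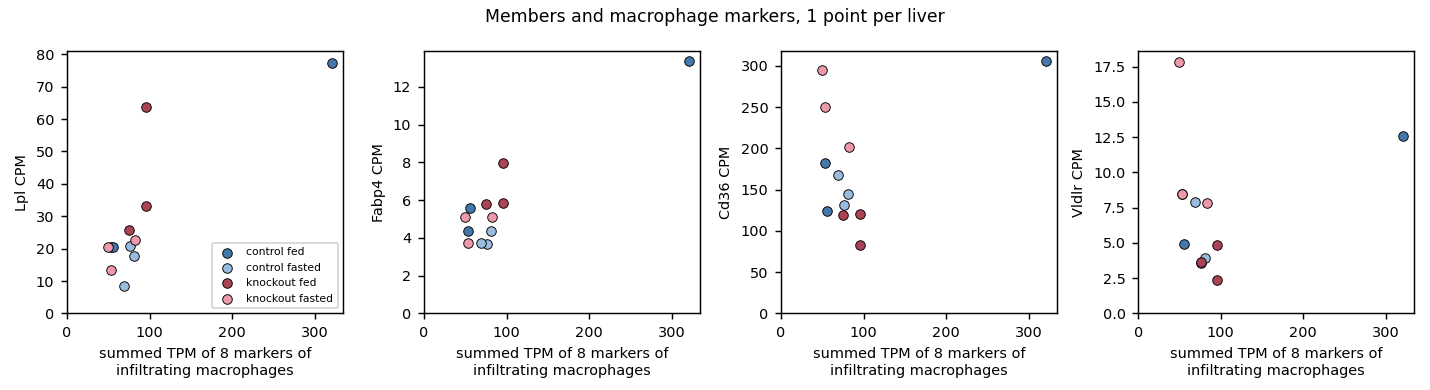
TMM-scaled CPM of Lpl, Fabp4, Cd36 and Vldlr (vertical axes) against the summed TPM of 8 infiltrating macrophage markers (horizontal axis), with 1 point per liver coloured by group. A single point, fed control replicate 3 at 321 TPM, lies far to the right and is the highest for Lpl, Fabp4 and Cd36, while the other 11 livers lie between 49.3 and 95.6 TPM.

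The genes whose log2 levels were most like those of each member over the 12 livers are given as a description, since livers of a group share their condition. For Cd36 these were Slc16a7, a monocarboxylate transporter, Chpt1, a choline phosphotransferase, and the lipid droplet gene Plin2 (Pearson r from 0.92 to 0.95). Slc16a7 and Chpt1 were also among the 3 nearest to Vldlr (0.90 and 0.89), after the noncoding gene Gm40663 (0.93). For Slc27a2 they were Pbld1, Slc25a13, the mitochondrial aspartate-glutamate carrier, and Cpt2, the inner carnitine palmitoyltransferase (0.97 to 0.98). The nearest to Slc27a1 was Mtg1 (0.97), to Slc27a4 Pcsk6, a proprotein convertase (0.94), to Fabp1 Retreg3 (0.89), to Fabp2 Nceh1, a cholesteryl ester hydrolase (0.91), and to Fabp5 Lrrc18 (0.97). For Fabp4 they were Ifit2, an interferon response gene, Ccna2, a cyclin, and Ms4a4c (0.94 to 0.97), and for Lpl Map3k1, Cyp4f16 and Mpeg1, a macrophage gene (0.95). These last patterns include the single high value of fed control replicate 3.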

How the data were processed

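Liver RNA from 12 mice was measured by strand-specific sequencing of poly(A) RNA, per the labels' protocols. Per the submitters' processing notes, the build was mm10 and the tools included featureCounts 1.6.3, HISAT2 2.1.0, DESeq2 1.24.0, bcl2fastq 2.19 and Trimmomatic 0.38, whose roles are not stated. The deposited tables hold unnormalized counts for each Ensembl gene and, separately, TPM values made by the authors. Groups come from the sample titles. Counts were tested in edgeR 4.0.16 (R 4.3.3) by quasi-likelihood F test after its filterByExpr rule, which left 15862 of 55487 genes, with TMM factors and all 12 libraries in 1 fit of group means. The 7 contrasts were 2-sided, with Benjamini-Hochberg adjustment over all tested genes and a threshold of 0.05. The SE is the log2 fold change divided by the square root of F. Alternatives were RLE factors, other filters, DESeq2 1.42.0, limma 3.58.1 on log2 TPM with pseudocounts of 1 and 0.1 (at least 0.5 TPM in 3 libraries), only the compared groups, a replicate block, and each library left out. The procedure was tested on simulated counts. Members, lists and the naming rule were chosen with earlier results of these data known: all 10 members, up to 4 called genes per list and comparison, and the 3 nearest patterns per member (log2 CPM, prior count 2). The values of 1 called gene of the lipase list are not reported here. The edgeR p-values set each difference against the spread between these mice, estimated over all fitted groups with information shared between genes.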

Additional observations from a re-analysis of the deposited data

Results flagged for a closer look

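Cd36 stood out because knockout and control livers differed in opposite directions in the 2 feeding states: every fed knockout was below every fed control and every fasted knockout above every fasted control in TMM-scaled CPM. The difference between the fasting responses was 1.67 on the log2 scale, with adjusted p = 0.52 by edgeR and 0.013 by DESeq2. In TPM the fed groups overlapped (80.2 TPM in the lowest control and 84.3 in the highest knockout).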

How the results depend on the processing

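Of 525 values for the 10 genes under the alternatives other than leaving out a library, 502 kept their direction and side of the threshold, and of 840 values with 1 library left out 789 did. DESeq2 called 1188, 794 and 1890 of all genes for fasting in controls, in knockouts and averaged, against 657, 393 and 1438 by edgeR. For knockout against control fed, fasted and averaged, and the interaction, DESeq2 called 33, 42, 46 and 60 genes, against 0, 5, 2 and 1. Of the 10 members it called 7 for fasting in knockouts and 5 for averaged fasting (beside 11.3% of all genes with an adjusted p), against 1 and 3. It called 1 for knockout against control fed and 2 for the interaction, against 0 and 0. Without a filter, knockout against control fed, fasted and averaged and the interaction gave 5, 13, 4 and 5 genes. With limma on log2(TPM + 1), 2 members and 304 genes passed for fasting in knockouts, and 3 and 1 genes for knockout against control fasted and averaged. With a pseudocount of 0.1, 2 members and 296 genes passed for fasting in knockouts, and 4, 5 and 3 genes for knockout against control fed and averaged and the interaction. Fits of only the compared groups gave 312 genes and 0 members for fasting in controls, 461 genes and 3 members for fasting in knockouts, and 1 gene each for knockout against control fed and fasted. The cause of these shifts was not tested.

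Replicate numbers are not said to pair mice: same-numbered libraries of different groups had deviations with r from -0.28 to 0.18 over genes, above 0.1 in 3 of 18 pairs. A replicate block gave 232 genes for fasting in knockouts and 3 for knockout against control fasted, and changed no call of a member.

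With 1 library left out, genes called ranged from 272 to 648 for fasting in controls, 88 to 573 in knockouts, 1025 to 1425 averaged, 0 to 1, 1 to 6 and 1 to 3 for knockout against control fed, fasted and averaged, and 1 to 3 for the interaction. Members called ranged from 1 to 2, 0 to 3 and 3 to 4 for the 3 fasting comparisons.

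Sign changes concerned values far from the threshold. Fabp4 for the averaged genotype difference went to -0.00344 with a filter of 1 CPM, and with limma Fabp5 for knockout against control fasted went to 0.0903 and 0.24 and Slc27a4 for the averaged genotype difference to -0.00263 and -0.00343. With 1 library left out, the averaged genotype difference ranged from -0.21 to 0.12 for Cd36, -0.14 to 0.32 for Fabp4, -0.0822 to 0.62 for Lpl, -0.0408 to 0.0715 for Slc27a4 and -0.30 to 0.17 for Vldlr. Fasting ranged from -0.0925 to 0.0512 for Fabp1 averaged and from -0.23 to 0.0126 for Fabp2 in controls. Knockout against control ranged from -0.53 to 0.39 for Fabp4 and -0.42 to 0.99 for Lpl fed, and from -0.0115 to 0.25 for Fabp2, -0.58 to 0.92 for Fabp5 and -0.0314 to 0.51 for Lpl fasted. The interaction ranged from -0.14 to 0.78 for Fabp4, -2.16 to 0.0338 for Fabp5, -0.73 to 0.68 for Lpl and -0.0537 to 0.17 for Slc27a2.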

Other observations

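Pparg, a nuclear receptor known to activate Cd36 and Fabp4 in fat, was singled out after its values were seen. It was at 28.9, 16.6 and 34.8 TPM in fed and 16.6, 10.3 and 7.21 TPM in fasted controls. Knockouts had 9.29, 18.6 and 14.0 TPM fed and 21.8, 20.1 and 13 TPM fasted. Its fasting difference was -1.19 in controls (adjusted p = 0.082) and 0.38 in knockouts (0.67) on the log2 scale by edgeR, and the difference between these was 1.57 (adjusted p = 0.56).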
